A study of Mus musculus with 15 samples.

Results

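Transcripts of 9 Wnt antagonists were followed in primary mouse articular chondrocytes in which tankyrase had been knocked down or inhibited. The genes were *Frzb*, *Sfrp1*, *Sfrp2*, *Sfrp4*, *Wif1*, *Dkk1*, *Dkk2*, *Dkk3* and *Dact1*, taken by name as 9 of the 24134 genes in each of the count tables, and all 9 were found in both. The cells came from knee cartilage of ICR mice aged 4 to 5 days and were cultured without passaging. The siRNA table held 3 libraries of cells transfected with control siRNA (siCtrl) and 3 of cells transfected with siRNAs against *Tnks* and *Tnks2* together (siTnks/2). The drug table held 3 libraries each of cells kept for 108 h in the solvent DMSO, in 10 μM XAV939 or in 10 μM IWR-1, both tankyrase inhibitors, on otherwise wild-type cells. No duration was given for the siRNA transfection, and the libraries of a group are described as biological replicates. RNA came from all cells of a culture together, so fewer cells of a type and less RNA per cell cannot be told apart.

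Wnt proteins signal by joining a Frizzled receptor to an Lrp coreceptor, which stops the destruction of β-catenin. Frizzled-related proteins (*Frzb* and the *Sfrp* genes) and *Wif1* are secreted and bind the Wnt protein itself, whereas Dickkopf proteins such as *Dkk1* and *Dkk2* bind the Lrp coreceptor. *Dkk3* is a divergent Dickkopf family member, and *Dact1* is not secreted but binds Dishevelled inside the cell. *Frzb* was first purified from cartilage, and a surplus of β-catenin signalling is known to damage articular cartilage. Tankyrases mark Axin, the scaffold of the β-catenin destruction complex, for degradation, and XAV939 and IWR-1 occupy neighbouring pockets of their catalytic domain.

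Sequence 5′ of the starts is shown for the genes whose levels moved furthest, *Frzb* and *Dact1*, which rose with all 3 treatments, and *Sfrp2* and *Wif1*, which fell with both inhibitors. The RefSeq promoter table (GRCm38.p6, the mm10 assembly) held a window of 250 bases before to 50 bases after the start for 6 of the 9 genes, those 4 with *Dkk1* and *Dkk2*. *Sfrp1*, *Sfrp4* and *Dkk3* had no entry. Each stretch reads 5′ to 3′ on the strand of its gene, and capitals mark the letters CTTTGA, bound by TCF/LEF factors, or their reverse complement TCAAAG. For *Frzb*, only the match and its flanks are given, because a GENCODE transcript begins 229 bases before the RefSeq start and places the match in its first exon. For *Wif1*, the stretch ends where the first GENCODE exon begins, 44 bases before the RefSeq start, and for *Sfrp2* it lies inside the RefSeq gene span, since a further RefSeq model begins upstream.
*Frzb*, chr2:80447474-80447503, minus strand: tcccctgaaaacTCAAAGccttctcggaag
*Dact1*, chr12:71309634-71309883, plus strand: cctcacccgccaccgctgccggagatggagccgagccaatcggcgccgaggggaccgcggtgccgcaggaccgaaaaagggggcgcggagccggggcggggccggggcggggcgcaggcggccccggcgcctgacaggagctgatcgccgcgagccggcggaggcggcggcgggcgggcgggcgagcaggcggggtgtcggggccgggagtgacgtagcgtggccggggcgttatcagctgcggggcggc
*Sfrp2*, chr3:83766071-83766320, plus strand: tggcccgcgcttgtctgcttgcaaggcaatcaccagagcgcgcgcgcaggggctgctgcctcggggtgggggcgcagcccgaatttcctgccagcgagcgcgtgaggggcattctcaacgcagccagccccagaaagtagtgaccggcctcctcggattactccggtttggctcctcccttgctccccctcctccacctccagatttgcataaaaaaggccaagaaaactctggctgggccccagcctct
*Wif1*, chr10:121033754-121033959, plus strand: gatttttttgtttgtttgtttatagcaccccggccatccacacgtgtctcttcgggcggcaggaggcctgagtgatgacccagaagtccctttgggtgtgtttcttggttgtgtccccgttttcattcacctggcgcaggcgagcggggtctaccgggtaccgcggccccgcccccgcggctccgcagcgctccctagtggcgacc

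Over the whole window and both strands, the TCF/LEF letters occurred 1 time in *Frzb*, 95 bases before the start, and 2 times in *Dkk1*, 117 and 174 bases before it. They were not in the windows of *Sfrp2*, *Wif1*, *Dkk2* and *Dact1*, and 16.0% of the 32851 promoters in the table held them. The SOX letters AACAAT, or ATTGTT on the other strand, were in none of the 6 windows and in 10.7% of all promoters. The 2 sets of letters do not overlap each other. G and C made up 79.7% of the *Dact1* window, 64.7% of that of *Frzb*, 66.0% of that of *Sfrp2* and 63.0% of that of *Wif1*, against a median of 52.7% over all promoters.

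Libraries held 26857070 to 36615194 counts on genes. Values are given as CPM (read counts relative to library size after TMM scaling, edgeR's correction for library composition), and differences as log2 fold changes with their standard error (SE) and a Benjamini-Hochberg adjusted p-value from edgeR's quasi-likelihood test over all genes tested in the table. A gene was called at an adjusted p under 0.05. With knockdown, *Tnks* measured 12.7 to 24.0 CPM against 58.4 to 70.1 CPM in siCtrl (log2 fold change −1.81, SE 0.22, adjusted p = 0.00569), and *Tnks2* 44.9 to 61.2 CPM against 115 to 120.0 CPM (−1.10, SE 0.11, adjusted p = 0.00384). In the drug table, *Tnks2* was called lower with XAV939 (−0.41, SE 0.12, adjusted p = 0.0394, up to 0.112 with 1 library left out). It was not called with IWR-1 (−0.27, adjusted p = 0.105). *Tnks* ran from 20.0 to 64.1 CPM in DMSO and was not called with XAV939 (−0.72, adjusted p = 0.263) or IWR-1 (−0.19, adjusted p = 0.754). Replicates of 1 number tended to deviate together in both tables, so the replicate number was also fitted as a block. Its values are given where they change a call of the 9 genes, and as counts for the other gene lists. The share of all genes called with the block was not computed, so counts called with the block cannot be read against it.

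The chondrocyte label was checked against 15 cartilage genes such as *Col2a1* and *Acan*, all of which were tested. Their summed level was 96571 to 128967 CPM in siCtrl, 139723 to 225004 CPM in siTnks/2, 29201 to 39817 CPM in DMSO, 41396 to 61946 CPM with XAV939 and 99601 to 126594 CPM with IWR-1. Of them, 7, 6 and 15 were called higher with knockdown, XAV939 and IWR-1 (10.4%, 7.57% and 16.2% of all genes), none lower (12, 13 and 15 with the block). *Col2a1* alone averaged 68068 CPM in siCtrl, 105947 in siTnks/2, 23784 in DMSO, 34208 with XAV939 and 74937 with IWR-1, most of each sum. Without the block, *Col2a1* was not called with knockdown (log2 fold change 0.64, adjusted p = 0.14) or XAV939 (0.52, adjusted p = 0.118). Nor was *Sox9* (0.07, adjusted p = 0.68, and 0.34, adjusted p = 0.0677). The 10 fibroblast markers summed to 5974 to 9608 CPM in siCtrl, 3906 to 8482 CPM in siTnks/2, 15689 to 17750 CPM in DMSO, 8164 to 10783 CPM with XAV939 and 7136 to 9902 CPM with IWR-1. Of these, 1 was called higher with knockdown, 4 lower with XAV939 (9.85% of all genes), and 5 lower (20.2%) and 1 higher with IWR-1. With the block these calls came to 2 higher and 2 lower, 2 higher and 6 lower, and 2 higher and 7 lower. Of 8 osteoblast markers, 2 were called higher after knockdown, 3 in XAV939 and 4 in IWR-1, and 5, 4 and 4 with the block. The 10 leukocyte markers summed to 8.43 to 12.2 CPM in the siRNA table, 31.8 to 44.7 CPM in DMSO and XAV939 and 14.5 to 20.4 CPM in IWR-1. *Cd14* (log2 fold change −1.60), *Cd68* (−1.02) and *Csf1r* (−1.16) were called lower in IWR-1, none of the list in XAV939, and *Cd14* (−0.57) after knockdown. Of the defining genes, *Tyrobp* and *Cd3e* were at 3 counts or fewer in every library, whereas *Ptprc*, *Adgre1*, *Itgam* and *Cd79a* exceeded that in at least 1 DMSO library. Skeletal muscle and adipocyte markers summed to at most 8.35 and 0.841 CPM. Endothelial markers summed to 0.835 to 3.14 CPM in 14 libraries and to 10.1 CPM in siTnks/2 replicate 2, which also had the highest chondrocyte sum, the lowest fibroblast sum and the lowest correlation with the mean of the others in its group (Pearson r = 0.9817 across genes). Of the 8 endothelial markers, 2 were tested, and both, *Tek* (−2.30) and *Vwf* (−1.12), were called lower in IWR-1, neither in XAV939 or after knockdown. In every group, replicate 2 had the highest chondrocyte and the lowest fibroblast sum. The part of these marker levels in the results below was not tested.

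The make-up of the antagonists differed between the groups. Levels of different genes were compared as CPM per kb of exon. In siCtrl, *Dkk3* made up 53.7% ± 2.12 (SD, n = 3) of the summed level of the 9 genes, *Frzb* 25.1% ± 3.25 and *Wif1* 12.4% ± 2.9. After knockdown, *Frzb* made up 59.8% ± 13.4 and *Dkk3* 20.2% ± 8.18. In DMSO, *Dkk3* stood at 68.2% ± 7.41, *Wif1* at 14.0% ± 3.7, *Sfrp2* at 9.04% ± 1.93 and *Frzb* at 4.35% ± 1.9. With XAV939 *Frzb* reached 18.9% ± 6.59 and with IWR-1 32.8% ± 8.58, while *Sfrp2* stood at 2.33% ± 1.4 and 1.49% ± 0.887, and *Dact1* went from 1.41% ± 0.16 in DMSO to 4.02% ± 0.903 and 9.16% ± 0.345. The summed level was 88.4 ± 8.09 CPM per kb in siCtrl and 151 ± 17.7 in siTnks/2, but 63.8 ± 7.22 in DMSO, 43.4 ± 5.55 with XAV939 and 44.6 ± 2.69 with IWR-1. The sum of 137 to 171 CPM per kb in the knockdown libraries lay above the 79.1 to 94.2 of their controls, and the 38.6 to 49.5 and 42.9 to 47.7 of the inhibitor libraries lay below the 55.5 to 68.7 of DMSO. These shares and sums are a description, with no test.

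**Figure D1:**
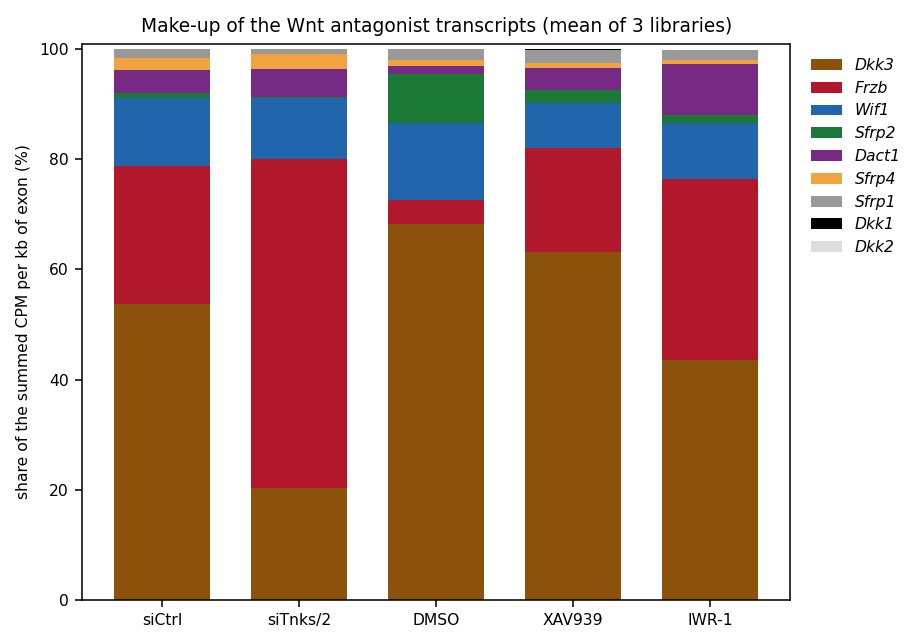
Share (%) of each of the 9 Wnt antagonists in their summed CPM per kb of exon, as the mean of 3 libraries for each group. *Frzb* went from 25.1% in siCtrl to 59.8% in siTnks/2 and from 4.35% in DMSO to 32.8% with IWR-1, while *Sfrp2* went from 9.04% in DMSO to 1.49% with IWR-1 and *Dkk1* and *Dkk2* are too low to be seen.

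Knockdown of *Tnks* and *Tnks2* asked what a partial loss of both tankyrase transcripts does to these genes. *Frzb*, *Dact1* and *Sfrp4* rose, by log2 fold changes of 2.04, 1.07 and 1.0, and no tested antagonist was called lower. Of the 7 genes with enough counts to be tested, 3 were called higher, where 10.4% of all genes tested were called higher and 7.61% lower. In 4 of the 7, *Frzb*, *Dact1*, *Sfrp4* and *Dkk3*, the knockdown and control libraries did not overlap, as for 43.8% of all genes tested. With the replicate block, 5 were called, *Sfrp2* and *Dkk3* being the added ones, both lower. Without siTnks/2 replicate 2, the library that stood apart, 5 were also called, *Wif1* as higher and *Dkk3* as lower being added. The tested genes had a median of 0.61 on the log2 scale, against 0.00 over all genes.

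XAV939 moved *Frzb* and *Dact1* up and *Sfrp2*, *Wif1* and *Dkk3* down. The log2 fold changes were 1.53 and 0.93 for the genes that rose and −2.54, −1.33 and −0.66 for those that fell. Thus 2 of 7 were called higher, where 7.57% of all genes were, and 3 of 7 lower, where 9.85% were. In 5 of the 7, all but *Sfrp1* and *Dkk3*, the libraries of the groups did not overlap (33.2% of all genes). The median of the 7 was −0.66, against 0.02 over all genes. Calls of 2 of these genes rest on single libraries: without DMSO replicate 1 or without XAV939 replicate 2, *Frzb* (log2 fold change 1.3 and 1.24, adjusted p = 0.0517 each) and *Dkk3* (−0.51 and −0.56, adjusted p = 0.161 and 0.141) were not called, which left 3 of 7.

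IWR-1 raised *Frzb* and *Dact1* and lowered *Sfrp2*, *Dkk3*, *Wif1* and *Sfrp1*. The log2 fold changes were 2.40 and 2.17 for the genes that rose and −3.05, −1.18, −0.94 and −0.68 for those that fell. Thus 2 of 7 were called higher (16.2% of all genes) and 4 of 7 lower (20.2% of all genes). In all 7 the IWR-1 and DMSO libraries did not overlap, as for 51.1% of all genes tested. The median of the 7 was −0.68, against 0.01 over all genes. Both inhibitors were compared with the same 3 DMSO libraries, so their values are given side by side and their likeness was not tested.

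**Figure D2:**
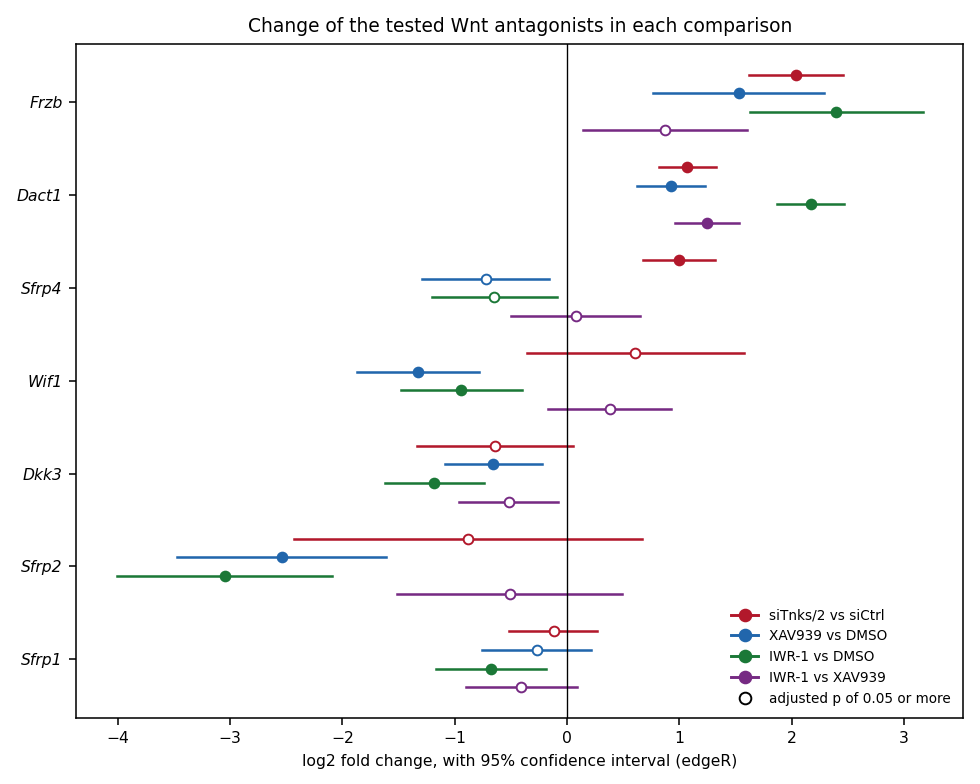
Log2 fold change of the 7 tested Wnt antagonists (points) with the 95% confidence interval (lines) in 4 comparisons; filled points have an adjusted p under 0.05. *Frzb* and *Dact1* lie above 0 in each comparison with a control, *Sfrp4* lies at 1.0 with knockdown and at −0.72 and −0.65 with the inhibitors, and *Sfrp2* lies furthest below 0, at −3.05, with IWR-1.

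*Frzb*, a Frizzled-related protein typical of cartilage (gene ID 20378, chromosome 2, 80411970 to 80447396, mm10, minus strand), rose with every treatment. In replicates 1, 2 and 3 it measured 69.7, 73.9 and 70.1 CPM in siCtrl and 315, 350.0 and 213 CPM in siTnks/2. It measured 5.92, 13.9 and 7.17 CPM in DMSO, 22.0, 35.9 and 20.8 CPM in XAV939 and 42.6, 65.3 and 35.7 CPM in IWR-1. Within each table, every treated library lay above every control library, replicate 2 was the highest of each group, and siTnks/2 replicate 3 was the lowest of its group. The fold change was 4.11 with knockdown (log2 2.04, SE 0.18, adjusted p = 0.00298), 2.89 with XAV939 (log2 1.53, SE 0.34, adjusted p = 0.0118) and 5.28 with IWR-1 (log2 2.40, SE 0.35, adjusted p = 0.000339). Within pairs of 1 replicate number, the log2 difference ran from 1.60 to 2.24 with knockdown, from 1.36 to 1.88 with XAV939 and from 2.22 to 2.83 with IWR-1. The effect of knockdown did not differ detectably from that of XAV939 (difference 0.52, 95% interval −0.39 to 1.43, adjusted p = 0.45) or of IWR-1 (−0.35, −1.26 to 0.56, adjusted p = 0.584). Control levels differed between the tables, 71.2 ± 2.31 CPM in siCtrl and 9.01 ± 4.32 CPM in DMSO, which were scaled separately and differ in how the cells were treated.

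*Sfrp4*, another secreted Frizzled-related protein (gene ID 20379, chromosome 13, 19623175 to 19632825, plus strand), rose with knockdown. It measured 9.27, 6.76 and 8.33 CPM in siCtrl and 15.9, 15.3 and 17.7 CPM in siTnks/2. The levels were lower in the drug table, at 2.20, 2.39 and 3.43 CPM in DMSO, 1.59, 1.28 and 1.88 CPM in XAV939 and 1.63, 1.28 and 2.12 CPM in IWR-1. Knockdown libraries lay above their controls and inhibitor libraries below theirs, without overlap. The log2 fold change was 1.0 with knockdown (SE 0.14, adjusted p = 0.00738). It was −0.72 with XAV939 (SE 0.25, adjusted p = 0.0669) and −0.65 with IWR-1 (SE 0.25, adjusted p = 0.0604), which did not pass the threshold. With the replicate block both inhibitor values passed it, with adjusted p = 0.00715 and 0.00676, and without IWR-1 replicate 3 the IWR-1 value was −0.86 (adjusted p = 0.0347). The libraries held 183 to 543 *Sfrp4* counts each in the knockdown experiment and 34 to 109 in the inhibitor experiment.

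*Sfrp2* (gene ID 20319, chromosome 3, 83765750 to 83774314, plus strand), a secreted Frizzled-related protein, fell furthest with the inhibitors. In DMSO it measured 10.2, 14.1 and 12.6 CPM. With XAV939 it measured 1.05, 2.03 and 3.15 CPM and with IWR-1 0.581, 1.48 and 2.23 CPM, so that even the highest treated library lay far below the lowest DMSO library. This was a log2 fold change of −2.54 with XAV939 (SE 0.42, adjusted p = 0.00234) and −3.05 with IWR-1 (SE 0.43, adjusted p = 0.000274), a fall by 5.81 and 8.27 times. In siCtrl it was already low, at 2.33, 0.407 and 2.33 CPM, and siTnks/2 held 1.25, 0.392 and 1.04 CPM. Replicate 2 was the low one in both groups, with 11 counts in each library. Knockdown gave −0.88 on the log2 scale (SE 0.65, adjusted p = 0.351), and with the replicate block −0.83 (adjusted p = 0.0343); within pairs it was −0.87, −0.04 and −1.11. An antisense gene, *Gm26771*, overlaps *Sfrp2*, and the strand setting of the counting is not given in the sources used here, so reads of both may be counted together.

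*Sfrp1* (gene ID 20377, chromosome 8, 23411383 to 23449632, plus strand), a further secreted Frizzled-related protein, differed little. It measured 5.54, 5.43 and 7.53 CPM in siCtrl and 5.07, 6.13 and 5.78 CPM in siTnks/2, with overlapping groups (log2 fold change −0.12, 95% interval −0.52 to 0.27, adjusted p = 0.629). It measured 4.12, 5.53 and 6.29 CPM in DMSO, 3.91, 3.83 and 5.4 CPM in XAV939 and 2.70, 3.15 and 4.03 CPM in IWR-1. XAV939 libraries overlapped those of DMSO (−0.27, 95% interval −0.76 to 0.21, adjusted p = 0.41), and those of IWR-1 did not (−0.68, SE 0.22, adjusted p = 0.0313). The IWR-1 call was lost without IWR-1 replicate 1 (adjusted p = 0.116), IWR-1 replicate 2 (0.0979), DMSO replicate 2 (0.0714) or DMSO replicate 3 (0.0899), at log2 fold changes of −0.56, −0.65, −0.65 and −0.55.

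*Wif1*, a secreted protein that binds Wnts outside the Frizzled-related family (gene ID 24117, chromosome 10, 121034004 to 121100642, plus strand), fell with both inhibitors. It measured 18, 21.6 and 24.3 CPM in DMSO, 7.30, 7.66 and 10.4 CPM in XAV939 and 7.21, 10.8 and 15.2 CPM in IWR-1. No treated library reached a DMSO library. The log2 fold change was −1.33 with XAV939 (SE 0.25, adjusted p = 0.00467) and −0.94 with IWR-1 (SE 0.24, adjusted p = 0.0113). In the siRNA table it measured 34.6, 18.8 and 26.9 CPM in siCtrl and 54.5, 18.1 and 50 CPM in siTnks/2. Replicate 2 was the lowest of both groups, and the log2 differences within pairs were 0.66, −0.05 and 0.89. Knockdown gave a value of 0.61 (SE 0.41, adjusted p = 0.328), short of the threshold, and without siTnks/2 replicate 2 it was 0.96 (adjusted p = 0.0219).

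Among the 9 genes, *Dkk3* had the most transcript per kb in every group but siTnks/2. It lies on chromosome 7, 112116019 to 112159482, minus strand (gene ID 50781). In DMSO it measured 176, 150.0 and 115 CPM, with XAV939 122, 80.1 and 77.2 CPM and with IWR-1 71.9, 57.4 and 65.4 CPM. XAV939 replicate 1 lay above DMSO replicate 3, and all IWR-1 libraries lay below all DMSO and XAV939 libraries. The log2 fold change was −0.66 with XAV939 (SE 0.20, adjusted p = 0.0434) and −1.18 with IWR-1 (SE 0.20, adjusted p = 0.000915). The XAV939 call was lost under upper-quartile scaling (−0.61, adjusted p = 0.058), in a fit of only the groups compared (−0.67, adjusted p = 0.0745) and when any 1 of 7 libraries was left out, all but XAV939 replicate 1 and DMSO replicate 3 (adjusted p = 0.0507 to 0.161). In siCtrl it measured 160.0, 142 and 177 CPM and in siTnks/2 125, 55.2 and 126 CPM, without overlap. Knockdown replicate 2 was the lowest of its group by far. Knockdown gave a value of −0.64 (SE 0.29, adjusted p = 0.166), which was −0.72 (adjusted p = 0.0359) with the replicate block and −0.35 (adjusted p = 0.0402) without siTnks/2 replicate 2.

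*Dkk1* and *Dkk2*, the Dickkopf genes that bind the Lrp coreceptors, were at the limit of detection. *Dkk1* (gene ID 13380, chromosome 19, 30545876 to 30549496, minus strand) had 4 counts in all in siCtrl, 2 in siTnks/2, 4 in DMSO, 8 with XAV939 and 1 with IWR-1, and at most 5 in a library. *Dkk2* (gene ID 56811, chromosome 3, 132085266 to 132180304, plus strand) had 8 counts in siCtrl, 2 in siTnks/2, 1 in DMSO, 1 with XAV939 and 2 with IWR-1, and at most 3 in a library. A count of 0 allows up to 3 counts, or 0.0819 to 0.1117 CPM depending on the library. Both were removed by the filter on low counts, and a difference between groups was not detectable at this depth. Without the filter, adjusted p ran from 0.15 to 0.848 for *Dkk1* and from 0.226 to 1 for *Dkk2*.

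*Dact1* (gene ID 59036, chromosome 12, 71309884 to 71320107, plus strand), the intracellular antagonist, rose with every treatment. It measured 14.5, 12.4 and 14.4 CPM in siCtrl and 31.0, 30.7 and 25.6 CPM in siTnks/2. It measured 3.26, 3.52 and 3.30 CPM in DMSO, 5.55, 7.17 and 6.64 CPM in XAV939 and 15.4, 15.9 and 14.7 CPM in IWR-1. In the drug table the libraries of each group lay close together and the groups followed each other without overlap. The fold change was 2.11 with knockdown (log2 1.07, SE 0.11, adjusted p = 0.00374), 1.90 with XAV939 (log2 0.93, SE 0.14, adjusted p = 0.00126) and 4.5 with IWR-1 (log2 2.17, SE 0.14, adjusted p = 2.52e-06). The 3 calls held under every alternative tried, with adjusted p up to 0.0264, 0.00911 and 3.58e-05 when single libraries were left out. A transcript on the opposite strand, *4930474H06Rik*, overlaps the gene, with the same limit as for *Sfrp2*.

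**Figure D3:**
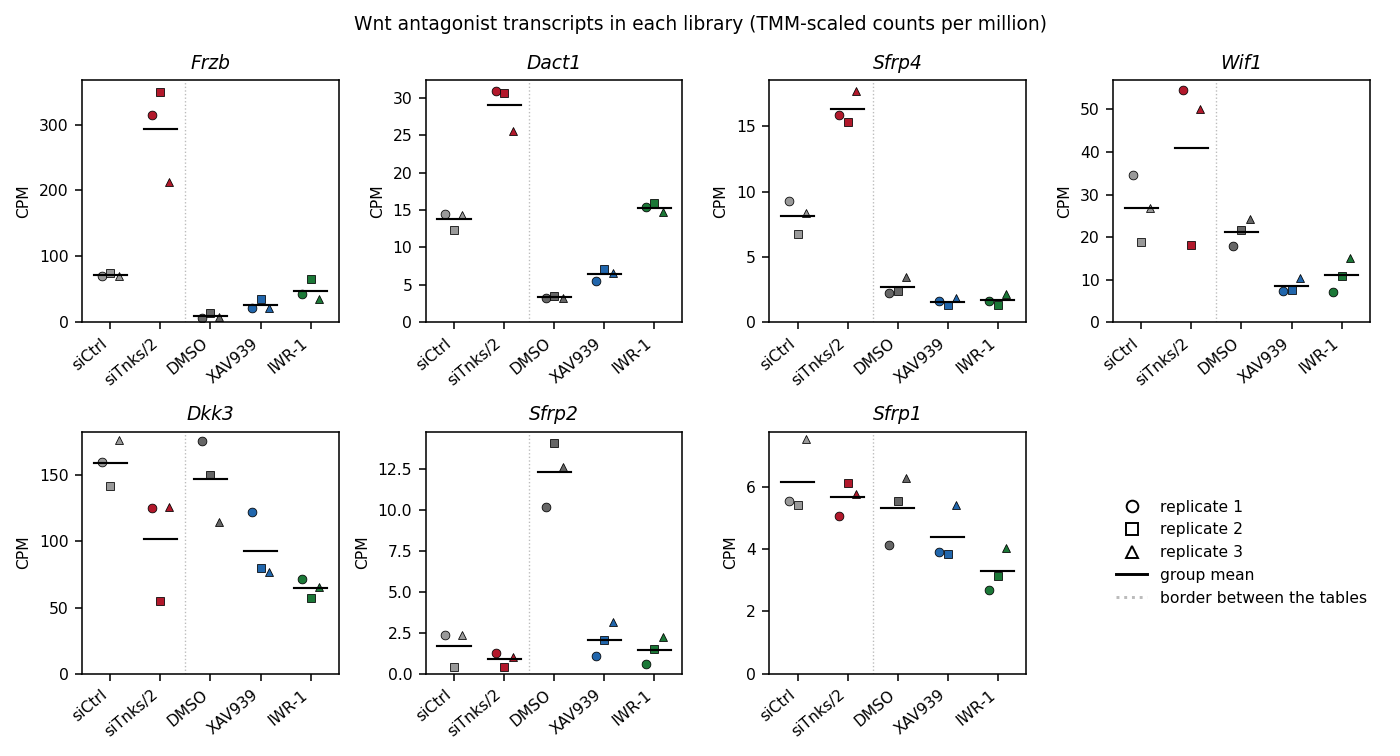
CPM (TMM-scaled, linear axes from 0) of the 7 tested Wnt antagonists in each of 15 libraries, with symbols for replicates 1 to 3 and lines for group means; the dotted line parts the siRNA table from the drug table. *Frzb* runs from 5.92 CPM in a DMSO library to 350.0 CPM in a siTnks/2 library, *Dact1* steps up from DMSO through XAV939 to IWR-1, and replicate 2 of siTnks/2 is low for *Wif1* and *Dkk3*.

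XAV939 and IWR-1 were given at the same concentration and for the same time, so this pair of compounds was compared directly over the 7 tested genes. *Dact1* was higher with IWR-1 than with XAV939 by 1.25 on the log2 scale (SE 0.13, adjusted p = 0.000202), and it was the only 1 of 7 called, where 7.37% of all genes were called higher and 10.2% lower. *Dact1* and *Dkk3* did not overlap between the inhibitors (37.6% of all genes). The difference was 0.87 for *Frzb* (95% interval 0.14 to 1.60, adjusted p = 0.0955), −0.52 for *Dkk3* (−0.96 to −0.08, adjusted p = 0.0968) and −0.41 for *Sfrp1* (−0.90 to 0.09, adjusted p = 0.243). With the replicate block these 3 were also called, with adjusted p = 0.000181, 0.00891 and 0.0428, and within each of the 3 pairs *Frzb* was higher (0.78 to 0.95) and *Dkk3* lower (−0.77 to −0.24) with IWR-1. *Frzb* was also called without DMSO replicate 2 (0.87, adjusted p = 0.0416). No difference was detected for *Sfrp2* (−0.51, −1.51 to 0.49, adjusted p = 0.471), *Wif1* (0.38, −0.17 to 0.93, adjusted p = 0.326) or *Sfrp4* (0.08, −0.50 to 0.65, adjusted p = 0.871), and the widths of these intervals leave room for differences either way.

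Whether knockdown and an inhibitor moved a gene differently was tested as the difference of their log2 fold changes, in a fit of all 15 libraries. *Sfrp4* differed from both inhibitors, by 1.73 against XAV939 (SE 0.30, adjusted p = 0.00183) and 1.65 against IWR-1 (SE 0.29, adjusted p = 0.000893). *Wif1* differed too, by 1.95 (SE 0.50, adjusted p = 0.0194) and 1.56 (SE 0.49, adjusted p = 0.0323). *Dact1* rose less with knockdown than with IWR-1 (−1.08, SE 0.17, adjusted p = 0.000375), and no difference from XAV939 was detected (0.16, 95% interval −0.21 to 0.53, adjusted p = 0.591). In all, 2 of 7 genes were called against XAV939 (13.5% of all genes) and 3 of 7 against IWR-1 (24.4%). *Sfrp2* did not pass against XAV939 (1.66, adjusted p = 0.18) or IWR-1 (2.17, adjusted p = 0.0627), but did with the replicate block (1.78, adjusted p = 0.00706, and 2.30, adjusted p = 0.000919), as did *Sfrp1* against IWR-1 (0.57, adjusted p = 0.0311). The way tankyrase was reduced or inhibited, the duration and the experiment cannot be told apart in these differences.

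These differences rest in part on single libraries. The difference of *Wif1* from XAV939 was not called without siTnks/2 replicate 1 (1.68, adjusted p = 0.052). Its difference from IWR-1 was not called when any 1 of 7 libraries was left out, namely siTnks/2 replicates 1 and 3, siCtrl replicates 2 and 3, IWR-1 replicates 1 and 2 and DMSO replicate 3 (1.32 to 1.56, adjusted p = 0.0601 to 0.0823). Against IWR-1, *Sfrp2* was called without siTnks/2 replicate 2 (2.50, adjusted p = 0.0372) or without IWR-1 replicate 3 (2.63, adjusted p = 0.0379), and *Dkk3* without siTnks/2 replicate 2 (0.85, adjusted p = 0.028). Those of *Sfrp4* and the *Dact1* difference from IWR-1 held whichever library was left out.

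Of 15 other antagonists listed, 8 were tested in each table. The listed names *Krm1* and *Krm2* matched no gene and were not measured. *Trabd2b* was the most abundant of the 8 by CPM (217 ± 26.1 in siCtrl and 177 ± 25.2 in DMSO). Without the block it was not called in any comparison with a control. Of all genes, 10.4% were called higher and 7.61% lower with knockdown, 7.57% and 9.85% with XAV939, and 16.2% and 20.2% with IWR-1. With knockdown, 1 was called higher, the Frizzled-related *Sfrp5* (6.83 ± 1.93 CPM against 1.38 ± 0.472, log2 fold change 2.24, adjusted p = 0.00773), and 1 lower, the membrane protein *Apcdd1* (−0.80, adjusted p = 0.0146). With XAV939, 1 of 8 was called, *Sostdc1*, a secreted antagonist, which was lower (−0.81, adjusted p = 0.0236). *Sostdc1* was also called lower with IWR-1 (−1.06, adjusted p = 0.0025). With IWR-1, 1 was called higher and 4 lower. *Draxin*, a secreted antagonist that overlaps *Mad2l2* on the other strand, fell from 22.3 ± 2.62 to 2.18 ± 0.748 CPM (−3.32, adjusted p = 2.89e-06), *Apcdd1* fell (−1.39, adjusted p = 0.00146), and *Sfrp5* measured 0.741 ± 0.556 CPM against 0.0397 ± 0.0344 in DMSO, which is under the level of 3 counts. With the replicate block, 4 of 8 were called with knockdown and 4 with XAV939. Without 1 library the calls of *Apcdd1* with knockdown (siCtrl replicate 1, 2 or 3 or siTnks/2 replicate 1, adjusted p = 0.0506 to 0.0595) and *Sostdc1* with XAV939 (DMSO replicate 2 or XAV939 replicate 1 or 3, adjusted p = 0.0617 to 0.0749) were lost.

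Of the 19 Wnt ligands, 9 were tested for knockdown and 8 for the inhibitors. With knockdown, 5 were called higher (10.4% of all genes) and 1 lower (7.61%). *Wnt2b* (log2 fold change 1.27, adjusted p = 0.0407) and *Wnt4* (1.19, adjusted p = 0.0135) rose most, and *Wnt10a* fell (−1.77, adjusted p = 0.0105). Levels were low for *Wnt2b* (0.28 ± 0.136 CPM in siCtrl and 0.773 ± 0.153 in siTnks/2) and *Wnt10a* (1.64 ± 0.355 and 0.43 ± 0.136). With XAV939, 2 were called higher (7.57% of all genes) and 4 lower (9.85%). Among them were *Wnt4* (1.31, adjusted p = 0.00331) and *Wnt10b* (0.89, adjusted p = 0.00715) as higher and *Wnt9a* (−1.91, adjusted p = 0.00292) and *Wnt7b* (−1.49, adjusted p = 0.00369) as lower. With IWR-1, 2 were called higher (16.2% of all genes), *Wnt4* (1.29, adjusted p = 0.00126) and *Wnt10b* (0.71, adjusted p = 0.00987). The 3 called lower (20.2% of all genes) had *Wnt9a* (−3.18, adjusted p = 6.63e-05) and *Wnt10a* (−2.69, adjusted p = 0.000513) the furthest. Low levels also underlie some of these falls, with *Wnt7b* at 0.354 ± 0.0414 CPM in XAV939. In IWR-1, *Wnt9a* stood at 0.48 ± 0.217 CPM and *Wnt10a* at 0.532 ± 0.215 CPM. The median over the tested ligands was 0.75, −0.50 and −0.25. With the block, all 9 tested ligands were called with knockdown, 6 higher and 3 lower, *Wnt5a* (adjusted p = 0.0074) being added as higher and *Wnt9a* (0.0239) and *Wnt11* (0.0432) as lower. With either inhibitor 3 were called higher and 4 lower with the block, *Wnt5a* being added as higher (adjusted p = 0.00645 and 0.0137) and *Wnt5b* as lower with IWR-1 (0.042). The knockdown call of *Wnt4* was lost without siCtrl replicate 1 (adjusted p = 0.0539), and that of *Wnt2b* without siCtrl replicate 2 or 3 or siTnks/2 replicate 1 or 3 (adjusted p = 0.0857 to 0.127).

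Among 15 tested receptors and coreceptors of 16, knockdown called 2 higher (10.4% of all genes) and 1 lower (7.61%). XAV939 called 1 higher (7.57%) and 5 lower (9.85%), and IWR-1 3 higher (16.2%) and 6 lower (20.2%). The Frizzled gene *Fzd9* was called higher in all of them, from 84.7 ± 3.46 to 136 ± 15.1 CPM with knockdown (log2 fold change 0.68, adjusted p = 0.00691) and from 9.60 ± 4.72 CPM in DMSO to 42.6 ± 9.72 with XAV939 (2.14, adjusted p = 0.000885) and 82.6 ± 12.7 with IWR-1 (3.10, adjusted p = 2.73e-05). *Fzd4* rose with knockdown (1.27, adjusted p = 0.00841), where the coreceptor *Ryk* fell (−0.44, adjusted p = 0.00822), and *Fzd6* rose with IWR-1 (0.77, adjusted p = 0.000644). *Ryk* was also called lower with XAV939 (−0.35, adjusted p = 0.0493) and IWR-1 (−0.41, adjusted p = 0.0144). *Fzd1* fell with XAV939 (−1.16, adjusted p = 8.33e-05) and IWR-1 (−1.32, adjusted p = 7.84e-06). So did *Ror2* (−0.61, adjusted p = 0.00291, and −0.60, adjusted p = 0.00109), and the coreceptor *Lrp5* fell with IWR-1 (−1.15, adjusted p = 0.00406). With the replicate block, knockdown called 4 higher and 6 lower, XAV939 1 higher and 6 lower, *Fzd5* being added (adjusted p = 0.0344), and IWR-1 4 higher and 6 lower, *Fzd4* being added (1.0, adjusted p = 0.000568). Of the R-spondins, which strengthen Wnt signals, and their Lgr receptors, 5 of 7 were tested. *Lgr4* rose with knockdown (0.54, adjusted p = 0.00374), *Rspo1* with XAV939 (1.25, adjusted p = 0.0149), and with IWR-1 *Rspo1* (1.78, adjusted p = 0.000632) and *Lgr4* (0.48, adjusted p = 0.0109) rose and *Rspo2* fell (−1.11, adjusted p = 0.00015). No other member of that group was called, and with the block 2, 3 and 5 were. *Rspo1* with XAV939 was not called without DMSO replicate 2 or XAV939 replicate 1 (adjusted p = 0.0514 and 0.0664), nor *Lgr4* with IWR-1 without DMSO replicate 1 (0.0561).

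Of 22 components that act inside the cell, knockdown called 4 of 21 tested higher (10.4% of all genes) and 2 lower (7.61%). Among them were *Dact3*, a relative of *Dact1*, at 0.52 (adjusted p = 0.0329), the Wnt carrier *Wls* at 0.24 (adjusted p = 0.0427), *Apc2* at −0.88 (adjusted p = 0.0095) and *Pygo2* at −0.27 (adjusted p = 0.0465). XAV939 called 1 of 22 lower (9.85% of all genes), the kinase gene *Csnk1a1* (−0.37, adjusted p = 0.0326). *Csnk1a1* was called higher with knockdown (0.24, adjusted p = 0.0488), and the difference of the effects was 0.63 (adjusted p = 0.0058). IWR-1 called 4 of 22, all lower (20.2% of all genes), among them *Dact2*, the other relative of *Dact1* (−1.83, adjusted p = 0.000215), and *Apc2* (−0.95, adjusted p = 0.00152). With the block, 10, 3 and 5 were called. Of 8 genes that are transcribed in response to Wnt and feed back on it, 7 and 6 were tested. *Lef1* was called higher with knockdown (0.58, adjusted p = 0.0141), and *Axin2*, the most used readout of β-catenin, was lower with XAV939 (−1.40, adjusted p = 0.00288) and IWR-1 (−2.18, adjusted p = 7.74e-05), where *Nkd2* (−1.55, adjusted p = 0.00482) was lower too and *Nkd1* higher (0.71, adjusted p = 0.0237). In all, 1, 1 and 4 feedback genes were called, and with the block 1, 3 and 5. Leaving out 1 library ended the knockdown calls of *Dact3* (any siCtrl replicate or siTnks/2 replicate 1, adjusted p = 0.087 to 0.113), *Wls* (any library but siTnks/2 replicate 2, 0.0769 to 0.138), *Pygo2* (any library, 0.0611 to 0.115) and *Lef1* (siCtrl replicate 2 or 3 or siTnks/2 replicate 1, 0.0526 to 0.0657). It also ended the IWR-1 call of *Nkd1* (any DMSO replicate or IWR-1 replicate 1, 0.0518 to 0.118) and the XAV939 call of *Csnk1a1* (any DMSO replicate, XAV939 replicate 1 or 2 or IWR-1 replicate 2, 0.0548 to 0.0836).

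**Figure D4:**
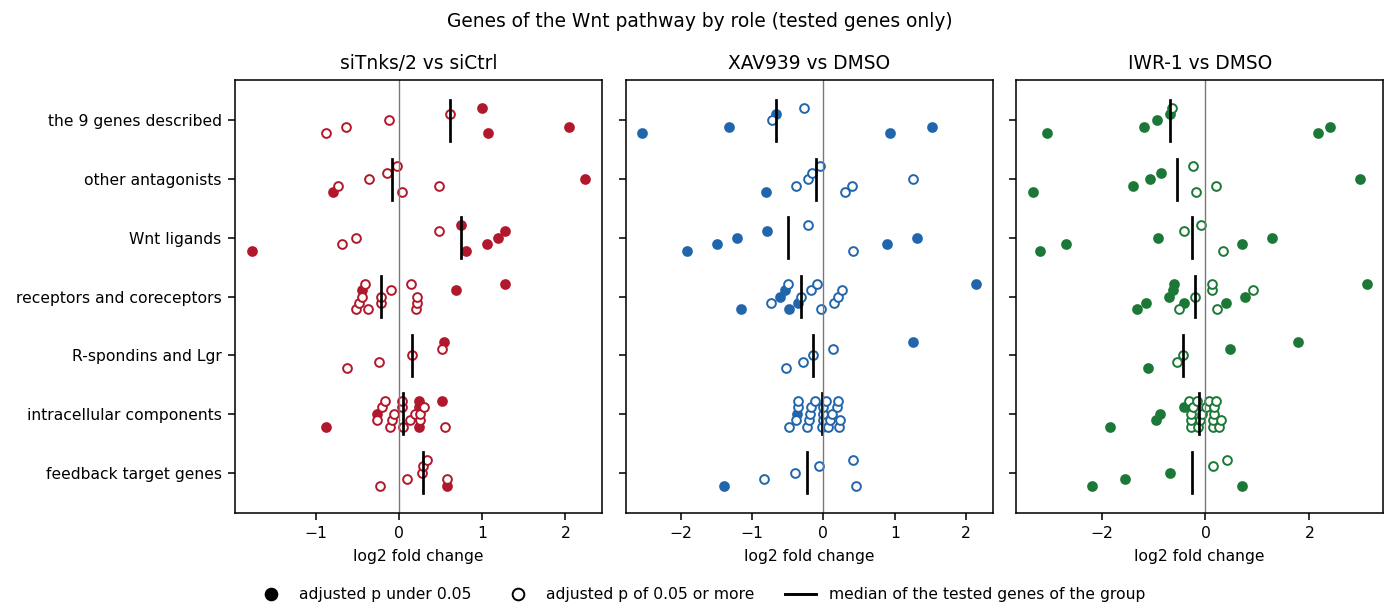
Log2 fold change of each tested gene of the Wnt pathway (points), grouped by role, in siTnks/2 against siCtrl and in XAV939 and IWR-1 against DMSO; filled points have an adjusted p under 0.05 and bars mark medians. With IWR-1, the Wnt antagonists described here spread from −3.05 to 2.40, and the other antagonists from −3.32 to 2.97. The intracellular components lie closest to 0, with medians of 0.05, −0.02 and −0.12.

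Genes with the pattern most like each antagonist were found by Pearson correlation of log2 CPM, centred on the mean of each table, over the 15 libraries and 13342 genes tested in both tables. The libraries share treatments, replicates and depth, and no test is attached. *Frzb* was closest to *Susd5* (r = 0.98) and *Chadl* (0.97), and *Dact1* to *Mras* and *Adgrg2* (0.99 each). *Sfrp2* was closest to *Eya2* (0.96) and *Slc39a10* (0.94), and *Wif1* to *Igfbp2* (0.95) and *Dlx3* (0.93). *Thpo* was among the closest to *Dkk3* (0.94). *Sfrp4* was closest to *Bach1* and *Pla1a* (0.93 each), and *Sfrp1* to *B4galt1* (0.91) and *Gdf6* (0.90).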

How the data were processed

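RNA of 15 chondrocyte cultures was sequenced from stranded poly(A) libraries. The deposited values are raw read counts per Entrez gene, 1 table per experiment. Per the labels, the authors used Trimmomatic 0.32, TopHat2 2.0.13 and HTSeq 0.6.1p1 with mm10; the strand setting is not given in the sources used here. Symbols matched 24051 of 24134 IDs (RefSeq, GRCm38.p6), and exon lengths and overlaps came from GENCODE.

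The counts were tested with edgeR 4.0.16 under R 4.3.3 (filterByExpr, TMM, quasi-likelihood F test, prior count 2), each table on its own (13672 and 13873 genes tested), and all 15 libraries in 1 fit for differences between effects (14271 genes). The steps were tested on simulated data. The labels number the replicates but do not say that libraries of 1 number are paired. After removal of group means, same-numbered libraries correlated at 0.424 to 0.519 in 3 siRNA pairs and 0.143 to 0.553 in 9 drug pairs. Others correlated at −0.409 to 0.097 and −0.489 to 0.318, so the ranges overlap in the drug table. The main fits have no block. Alternatives were RLE and upper-quartile scaling, no filter or 10 counts in every library, DESeq2 1.42.0, the block, only the groups compared, and leaving out each library.

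The 9 genes and the lists were chosen with earlier results of these data known. Of the other lists, the rule names the 2 strongest called genes each way per comparison; those of the direct comparisons between treatments are not listed, and 1 gene of the likeness comparison is not reported here. Reads carry no molecular identifiers, so floors cover counting error only.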

Additional observations from a re-analysis of the deposited data

Results flagged for a closer look

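In all, 5 differences between the effect of knockdown and that of an inhibitor passed the test of the difference itself. *Sfrp4* rose by 1.0 (log2) with knockdown and measured −0.72 and −0.65 with XAV939 and IWR-1, a difference of 1.73 and 1.65. *Wif1* measured 0.61, −1.33 and −0.94, a difference of 1.95 and 1.56. *Dact1* rose by 1.07 with knockdown and by 2.17 with IWR-1, a difference of −1.08. The fibroblast marker sum was lower with the inhibitors (8164 to 10783 CPM with XAV939 and 7136 to 9902 CPM with IWR-1, against 15689 to 17750 CPM in DMSO) and overlapped its controls with knockdown (3906 to 8482 against 5974 to 9608 CPM); its part in these differences was not tested.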

How the results depend on the processing

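The count of antagonists called changed as follows. For siTnks/2 against siCtrl it was 3, and 5 with the replicate block, with 3 to 5 when single libraries were left out (5 without siTnks/2 replicate 2). For XAV939 against DMSO it was 5, but 6 with the replicate block or DESeq2 and 4 with upper-quartile scaling or in a fit of those groups alone, with 3 to 5 when single libraries were left out (3 without DMSO replicate 1 or XAV939 replicate 2). For IWR-1 against DMSO it was 6, and 7 with the replicate block, with 5 to 7 (7 without IWR-1 replicate 3). For IWR-1 against XAV939 it was 1, but 2 with DESeq2, 2 in a fit of those groups alone and 4 with the replicate block, with 1 to 2 (2 without DMSO replicate 2). For the effect of siTnks/2 minus that of XAV939 it was 2, and 3 with the replicate block, with 1 to 2 (1 without siTnks/2 replicate 1), and minus that of IWR-1 it was 3, but 5 with the replicate block, with 2 to 5 (5 without siTnks/2 replicate 2). The block changed no call of an antagonist other than those given in the report, and it added the IWR-1 call of *Tnks2* (−0.26, adjusted p = 0.03).

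Among the antagonists, *Tnks* and *Tnks2*, directions turned only for uncalled values: *Sfrp1* with knockdown (−0.12, between −0.20 and 0.05 without single libraries), *Tnks* with IWR-1 (−0.51 to 0.47), *Sfrp4* in IWR-1 against XAV939 (−0.12 to 0.23), and *Dkk3* in the effect of siTnks/2 minus that of XAV939 (0.02, but −0.04 with upper-quartile scaling, −0.05 with the replicate block and −0.16 to 0.32 without single libraries). RLE scaling, no filter and the stricter filter changed no call or direction in the 50 values of the antagonists, *Tnks* and *Tnks2*, and upper-quartile scaling ended 2 calls in XAV939 against DMSO, of *Dkk3* (adjusted p = 0.058) and *Tnks2* (0.0551). DESeq2 added *Sfrp4* with XAV939 (0.0487) and *Frzb* in IWR-1 against XAV939 (0.0346). Among the other genes chosen by the rule, leaving out a library ended the call in 79 of 714 fits and turned no direction. Depth limits *Dkk1* and *Dkk2*. The causes of these shifts were not tested.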
